A study of Mus musculus with 69 samples.

Results

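The 9 chemokine receptor genes described here are Ccr1, Ccr2, Ccr4, Ccr6, Ccr7, Ccr8, Cxcr3, Cxcr5 and Cxcr6, which were picked by symbol out of the 23366 genes quantified in each library. Bulk RNA-seq was made from mouse type 1 regulatory T (Tr1) cells, the IL-10-secreting regulatory T cells that IL-27 induces. Naive CD4 T cells had been kept for 72 h with antibodies to CD3 (1 ug/ml) and, as labelled, CD8 (1 ug/ml) plus 25 ng/ml IL-27, and 2000 lysed cells went into each library by an adaptation of SMART-Seq2, a full-length method for small inputs that captures polyadenylated RNA. Each knockout of a transcription factor was compared with the controls named for it, over 63 of 69 libraries. What was measured was how the RNA of each receptor differed from control after loss of each of 15 factors, or of Prdm1 and Maf together.

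All animals were C57BL/6 except those of the Irf9 experiment, which were BALB/c. Floxed alleles were deleted by CD4 Cre(+/-) for Prdm1, Maf, both together, Fosl2, Hif1a, Nfil3 and Stat3, by dLck Cre(+/-) for Irf8 and by Actin Cre(+/-) for Atf3, the last not limited to T cells. The Prdm1 f/f, Maf f/f and Prdm1 f/f; Maf f/f groups (3, 3 and 2 libraries) shared 3 Cre-negative control libraries. The controls of Atf3 (2 against 2 libraries), Fosl2 (1 against 2), Hif1a (2 against 2) and Nfil3 (2 against 3) are labelled with the same floxed alleles and no Cre. Ahr (2 against 2), Ets1 (2 against 2), Irf4 (2 against 3), Irf9 (4 against 3) and Tbx21 (2 against 2) are labelled as knockouts and were set against wild-type cells. The Batf (2), Irf1 (3), Irf8 (2) and Stat3 (1) knockout libraries had 4 wild-type control libraries, in 3 sets that are called batches here. In 2 of these sets the control titles name several of the knockouts, which links them. The control of the third set names Irf1 alone, and that set was assigned by exclusion. The labels give no ages or sexes and do not say whether the libraries of a group came from separate animals or cultures. Each p-value therefore rests on library-to-library spread, part of which may be technical.

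Library totals ran from 743445 to 15221850 expected counts (median 2425249) and 10440 to 13890 genes were detected. The ribosomal RNA gene Rn45s took 43.7% of the counts of Irf8 knockout replicate 1 and 34% to 40.9% in the Fosl2 experiment, against 1.18% to 10.5% elsewhere. The summed level of 8 T cell markers was 1503 to 5436 CPM (expected counts scaled to the library total) over the libraries used, so T cell RNA was abundant in every group, and 12 myeloid and dendritic markers summed to 4.71 to 42.1 CPM, with Lyz2, S100a8 and Siglech at 0 in every experiment. That sum was 8.33 to 11.7 CPM without Ets1 against 20.2 to 21.2 CPM, and 12.2 to 13.2 CPM without Irf4 against 23.7 to 25.5 CPM. It was also lower without Tbx21 (13.3 to 17.5 against 20.2 to 32 CPM) and in the Atf3 knockout libraries (9.27 to 9.29 against 10.7 to 13.6 CPM). It was higher without Hif1a (9.92 to 14.5 against 6.64 to 6.76 CPM) and without Batf. The RNA of the targeted factor was below control in the knockouts of Prdm1, Maf, Batf, Stat3, Irf4 and Tbx21. It did not pass the test for Irf1, Irf8, Ahr, Ets1, Fosl2, Hif1a, Irf9 and Nfil3. Of these, Ets1 RNA lay above control, at 794 ± 22.4 against 702 ± 27 CPM (SD, n = 2 each). Ahr RNA did too, at 13.2 ± 1.02 against 7.22 ± 0.127 CPM (SD, n = 2 each). Where the targeted RNA did not pass, loss of the factor rests on the labels, also where the text says "without" or "loss". Nfil3 RNA was 107 ± 147 CPM (SD, n = 2) in its knockout against 267 ± 13.1 (SD, n = 3) in controls. Those 2 knockout libraries thus differed widely in the targeted RNA, and why was not tested. Atf3 RNA was 80.4 ± 7.51 CPM (SD, n = 2) in the libraries labelled Atf3 knockout against 20.8 ± 8.88 (SD, n = 2) in their controls, an increase. A messenger RNA can persist when only an exon is removed, and whether that was so here was not tested.

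Chemokine receptors are seven-transmembrane receptors that couple to Gi proteins and move cells up gradients of small secreted chemokines. The set a T cell carries is part of its differentiation: CCR7 takes cells into lymph nodes, CXCR5 into B cell follicles, CCR6 to mucosal epithelium and inflamed sites, CCR4 and CCR8 to skin and allergic inflammation, and CXCR3, CXCR6, CCR1 and CCR2 to inflamed tissue. The factors deleted here include those that direct these programmes, such as T-bet (Tbx21) for type 1 cells, IRF4 and BATF for effector differentiation, and Blimp-1 (Prdm1) and c-Maf (Maf) for IL-10-producing cells. In bulk RNA a difference in a receptor can come from fewer cells that carry it or from less RNA in each cell, and these cannot be told apart.

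The 250 bases before the start site of 5 of the receptors are shown because the comparisons that follow turn on them: Ccr4 and Ccr8, which rose together in the Ets1 and Irf4 knockouts, Ccr1 and Cxcr6, which fell in the Prdm1 knockout and rose in the Ets1 knockout, and Ccr2, which fell in 7 knockouts. They are RefSeq sequences on GRCm38.p6, a later build than the mm9 that the submitters' processing notes name, and are written 5′ to 3′ on the gene's strand. Capitals mark every match to one of the 8 motifs searched.
Ccr4, chr9:114496545-114496794, minus strand: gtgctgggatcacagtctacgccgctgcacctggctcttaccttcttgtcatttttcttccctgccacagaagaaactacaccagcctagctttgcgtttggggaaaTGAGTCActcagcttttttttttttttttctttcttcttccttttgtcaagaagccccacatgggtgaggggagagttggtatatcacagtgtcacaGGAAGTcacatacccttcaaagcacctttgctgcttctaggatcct
Ccr8, chr9:120091883-120092132, plus strand: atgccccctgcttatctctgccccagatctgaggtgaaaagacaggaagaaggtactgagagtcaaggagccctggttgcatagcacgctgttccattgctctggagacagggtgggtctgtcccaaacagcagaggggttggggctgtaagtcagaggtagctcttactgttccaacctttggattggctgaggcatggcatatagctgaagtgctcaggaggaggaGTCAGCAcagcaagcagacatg
Cxcr6, chr9:123806227-123806476, plus strand: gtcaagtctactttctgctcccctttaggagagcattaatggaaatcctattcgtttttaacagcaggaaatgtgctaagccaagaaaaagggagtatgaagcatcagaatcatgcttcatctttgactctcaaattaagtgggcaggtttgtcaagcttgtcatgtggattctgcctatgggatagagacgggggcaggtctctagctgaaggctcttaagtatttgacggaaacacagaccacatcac
Ccr1, chr9:123968693-123968942, minus strand: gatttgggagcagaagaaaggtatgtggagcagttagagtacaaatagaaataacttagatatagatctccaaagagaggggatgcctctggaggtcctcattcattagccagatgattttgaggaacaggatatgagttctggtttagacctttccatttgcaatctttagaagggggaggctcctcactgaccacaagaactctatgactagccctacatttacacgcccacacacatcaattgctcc
Ccr2, chr9:124101933-124102182, plus strand: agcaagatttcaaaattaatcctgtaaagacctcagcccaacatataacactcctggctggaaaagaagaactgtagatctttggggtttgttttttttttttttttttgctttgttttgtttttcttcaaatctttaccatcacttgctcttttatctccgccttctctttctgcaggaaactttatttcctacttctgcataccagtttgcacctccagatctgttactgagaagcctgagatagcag

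Motifs were searched on both strands from 250 bases before to 50 bases after the start, in 32851 promoters. The letters and the share of all those promoters that held them were, for IRF, GAAA repeated after a gap of 2 bases, in 3.44%; for AP-1, TGANTCA in 7.81%; for T-box, GGTGTGA in 3.98%; for ETS, GGAAGT in 23.8%; for STAT, TTCNNNGAA in 8.3%; for PRDM1, AGTGAAAG in 1.32%; for MAF, TGCTGAC in 4.67%; and for HIF, ACGTG in 19.6%. The Ccr4 window held an AP-1 match beginning 143 bases before the start and an ETS match 46 bases before it, which do not overlap. The Ccr8 window held 1 match, to the MAF letters on the opposite strand, beginning 22 bases before the start. The windows of Ccr1, Ccr2 and Cxcr6 held none of the 8 motifs, which says only that those letters are not in them. Of the other receptors, Cxcr3 had 2 ETS matches, and the 2 listed starts of Ccr6 had ETS, STAT and MAF matches at one and a HIF match at the other. Cxcr5 and Ccr7 were not among the 7 receptors matched. By gene order in the same annotation, Cxcr6, Ccr1 and Ccr2 stand in 1 cluster on chromosome 9 with Xcr1, Ccr1l1 and Ccr3, while Ccr4, Ccr8 and Cxcr5 are elsewhere on that chromosome.

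Ccr7 was by far the most abundant receptor RNA in control Tr1 cells. Per length, its median over the 28 control libraries was 567 TPM (transcripts scaled for gene length and library; 297 to 784), against 16.1 TPM (1.99 to 76.9) for Cxcr3, the receptor for the interferon-induced chemokines CXCL9 and CXCL10. Ccr7 was above Cxcr3 in 28 of 28 libraries and Cxcr3 above the next gene, Ccr2, in 24 of 28. Below them the order was not separated: Ccr2 (6.59 TPM) exceeded Ccr8 (6.54 TPM) in 13 of 28 libraries, Ccr8 exceeded Ccr4 (5.12 TPM) in 18, and Ccr4 exceeded Cxcr5 (4.62 TPM) in 14. Cxcr6 (1.4 TPM), Ccr6 (0.85 TPM) and Ccr1 (0.84 TPM) were lowest, and were at 0 in 4, 7 and 5 control libraries. Ccr1 was highest in the controls of the Prdm1 and Maf experiment (mean 12.8 TPM), and Cxcr3 in those of the Irf9 experiment (74.2 TPM). Cxcr4, the receptor for CXCL12 and not one of the 9, had a median of 36.9 TPM.

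**Figure D1:**
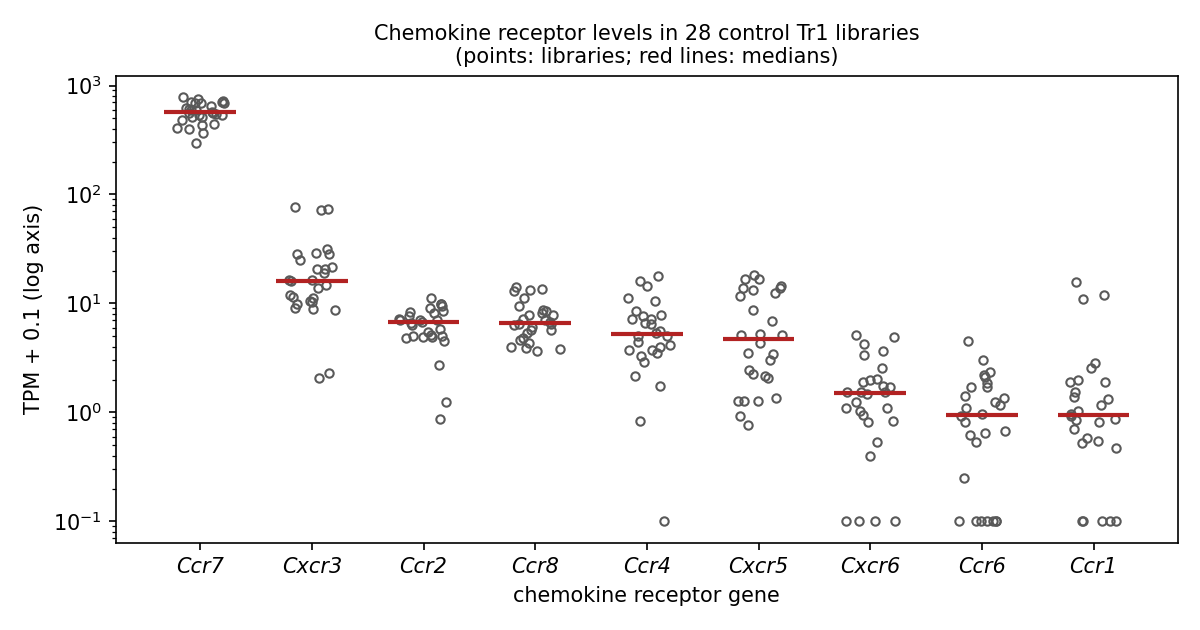
TPM plus 0.1 on a log axis for the 9 receptor genes in the 28 control libraries, 1 point per library, with medians as red lines. Ccr7 (median 567 TPM) stands apart from Cxcr3 (16.1 TPM) and from the other genes, which overlap.

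Of 144 pairs of receptor and knockout, 112 came through the count filter and were tested. Of these, 41 passed edgeR's quasi-likelihood test at an adjusted p under 0.05, 24 higher and 17 lower than control. The share of all genes that passed ran from 0.0207% (Nfil3) to 28% (Irf4) and is given with each comparison below. These totals, and the counts per gene that follow, therefore depend on which comparisons called many genes of any kind. At least 1 receptor passed in 10 of the 16 comparisons. The receptors did not move as 1 block. Ccr4 rose in 5 knockouts and fell in none, and Ccr8 rose in 2 and fell in none. Ccr2 fell in 7 of the 16 in which it was tested and rose in none. Cxcr5 rose in 5 and fell in 1, Cxcr3 rose in 4 and fell in 2, Ccr7 rose in 3 and fell in 2, Ccr1 rose in 1 and fell in 3, Cxcr6 rose in 2 and fell in 2, and Ccr6 rose in 2 and fell in none. Ccr1, Ccr6 and Cxcr6 came through the filter in only 8, 6 and 6 comparisons. The filter was applied once to all libraries of a joint fit, so Ccr6 counts as tested for Batf and Irf8 with 0 CPM in their knockout libraries. Where a called gene was at or near 0 in its controls, it passed the filter through the knockout libraries, so its being tested and its difference are not separate facts. The knockouts of Prdm1, Maf and both share controls, as do those of Batf, Irf1, Irf8 and Stat3, so agreement within those groups is not independent. Where groups are said not to overlap, the share of all genes that did likewise was not counted. Groups also stayed apart for receptors that did not pass, such as Ccr7 in the Ahr knockout (edgeR adjusted p = 0.976) and Cxcr5 in the Maf knockout (0.708). A lack of overlap describes the values and adds nothing to the test.

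**Figure D2:**
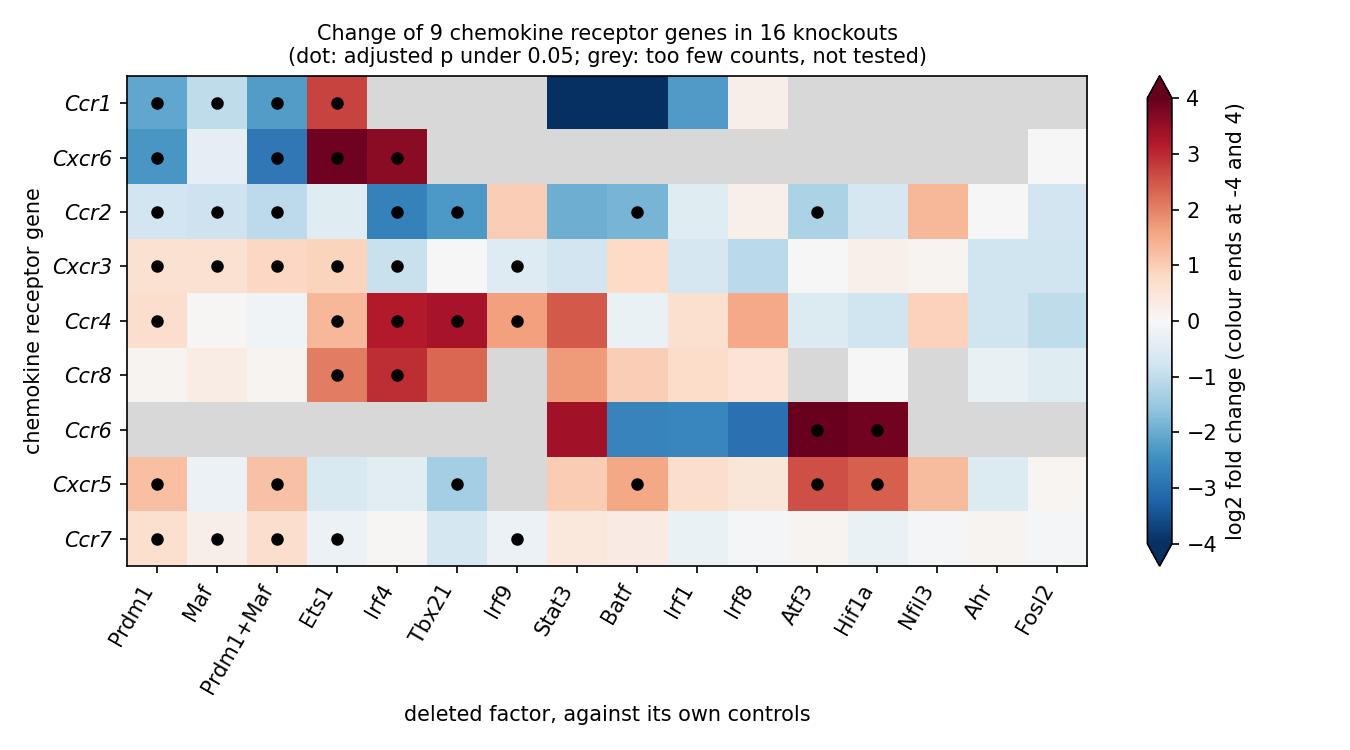
Log2 fold change of each receptor gene (rows) in each knockout against its own controls (columns), red for higher and blue for lower, with colour ending at 4 in either direction, a dot where the adjusted p was under 0.05 and grey where counts were too few to test. Ccr4 is dotted in 5 columns and Ccr2 in 7, and the dark Ccr1 cells of Stat3 and Batf come from knockout libraries at 0, where the size of the fitted change is set by the model's prior count.

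Loss of Prdm1, which encodes the repressor Blimp-1, moved the inflammatory receptors in both directions. Of the 8 receptors tested 4 were higher and 3 lower, against 4.97% and 7.11% of all genes tested (12.1% together). Ccr1, a receptor for CCL3 and CCL5, was 30.9, 23.4 and 21.1 CPM in the 3 controls and 7.03, 7.16 and 4.66 CPM in the 3 Prdm1 knockout libraries. Cxcr6, the receptor for membrane-bound CXCL16, was 6.57, 6.21 and 4.58 CPM in controls and 0.976, 1.14 and 1.49 CPM in knockouts. Every knockout library lay below every control for both genes. The log2 fold changes were -2.08 ± 0.20 (SE; adjusted p = 4.57e-07) for Ccr1 and -2.32 ± 0.28 (SE; adjusted p = 8.09e-06) for Cxcr6, both by edgeR's quasi-likelihood test.

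Ccr2, the receptor for CCL2, was 24.5, 24.6 and 23.5 CPM in these controls and 15.3, 16.5 and 12.5 CPM without Prdm1. Cxcr3, which had been 9.76, 9.38 and 9.39 CPM, was 15.04, 12.7 and 17.8 CPM. The lymph node receptor Ccr7 was 945, 953 and 1047 CPM in controls and 1610, 1557 and 1588 CPM in knockouts, and Cxcr5 was 2.13, 2.11 and 2.11 CPM against 4.69, 6.82 and 3.91 CPM. Groups did not overlap for any of these 4 genes. Their log2 fold changes were -0.78 ± 0.12 for Ccr2, 0.61 ± 0.14 for Cxcr3, 0.63 ± 0.05 for Ccr7 and 1.2 ± 0.27 for Cxcr5 (SE), with edgeR adjusted p of 0.000202, 0.0061, 2.78e-08 and 0.00568. Ccr4 also passed (0.70 ± 0.22, adjusted p = 0.0462), but its groups overlapped and the call was lost with DESeq2 (adjusted p = 0.0619) and when any of 9 single libraries was left out (0.0533 to 0.193).

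Loss of Maf shared part of this pattern and left another part out. Of 8 receptors tested 2 were higher and 2 lower, against 3.93% and 5.09% of all genes (9.02% together). Ccr1 was 9.71, 12.2 and 14.9 CPM in the Maf knockout libraries and Ccr2 12.7, 14.5 and 13.7 CPM, all below the controls, with log2 fold changes of -1.03 ± 0.19 (SE; edgeR adjusted p = 0.001) and -0.82 ± 0.12 (SE; 0.000154). Cxcr3 rose to 12.9, 15.5 and 15.4 CPM (0.62 ± 0.14; adjusted p = 0.00786). Cxcr6, at 5.34, 4.06 and 4.10 CPM, overlapped its controls (-0.37 ± 0.23; adjusted p = 0.358), and Cxcr5 was 1.58, 1.62 and 2.10 CPM (-0.25 ± 0.32; adjusted p = 0.708). Ccr7 rose slightly, to 1126, 1180 and 1103 CPM (0.22 ± 0.05; adjusted p = 0.00854), a call lost without control replicate 1 (adjusted p = 0.0522) or Maf knockout replicate 2 (0.0722).

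The Prdm1 and Maf knockouts were also set directly against each other, a contrast added after the data were seen. Ccr1 (-1.05 ± 0.22, adjusted p = 0.00304) and Cxcr6 (-1.95 ± 0.29, adjusted p = 8.44e-05) were lower in the Prdm1 knockout than in the Maf knockout. Ccr7 (0.41 ± 0.05, adjusted p = 9.11e-06) and Cxcr5 (1.45 ± 0.28, adjusted p = 0.00149) were higher. Over all genes 3.91% were higher and 4.29% lower in this contrast (8.2% together). Ccr2 (0.04 ± 0.13, adjusted p = 0.904) and Cxcr3 (-0.01 ± 0.13, adjusted p = 0.979) did not pass.

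In the double knockout 3 receptors were higher and 3 lower of 8 tested, against 8.2% and 10.8% of all genes (19% together). Ccr1 was 7.05 and 4.40 CPM, Cxcr6 0.982 and 0.700 CPM and Ccr2 12.6 and 12.3 CPM, while Ccr7 was 1707 and 1717 CPM, Cxcr3 19.6 and 16.3 CPM and Cxcr5 4.55 and 5.60 CPM. All lay outside the control range. Against controls the log2 fold changes were -2.22 ± 0.23 for Ccr1, -2.85 ± 0.34 for Cxcr6, -1.05 ± 0.14 for Ccr2, 0.71 ± 0.06 for Ccr7, 0.82 ± 0.15 for Cxcr3 and 1.16 ± 0.29 for Cxcr5 (SE), with adjusted p-values from 1.02e-08 to 0.00774. The Cxcr5 call was lost without double knockout replicate 2 (adjusted p = 0.0948). The interaction of the 2 deletions, which asks whether the double knockout departs from the sum of the single ones, called 0 of 8 receptors by edgeR and 0 by DESeq2, with 3 at an unadjusted p under 0.05, against 0.557% of all genes higher and 0.539% lower (1.1% together). Its largest values were 0.89 ± 0.32 for Ccr1 (adjusted p = 0.244) and -0.90 ± 0.35 for Ccr4 (0.28).

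Double knockout replicate 3, which held 9059 counts and none of the 9 receptors, was left out. With it in the fit Ccr1 and Cxcr6 kept their calls in the Prdm1 knockout, and the number of receptors called went from 7 to 2 for Prdm1, from 4 to 1 for Maf and from 6 to 3 for both. The summed B cell marker level moved with Cxcr5 in this experiment: 10 markers summed to 21.8 to 28.4 CPM in the Prdm1 knockout and 25 to 27.4 CPM in the double knockout, against 15.9 to 17.4 CPM in controls and 12.1 to 16.3 CPM in the Maf knockout. Of 6 markers with enough counts 4 rose in the Prdm1 knockout and 3 in the double knockout, and their part in the Cxcr5 difference was not tested. The 7 CD8 T and NK markers summed to 16.6 to 21.6 CPM in the Prdm1 knockout against 9.78 to 10.8 CPM in controls, 9.85 to 12.5 CPM in the Maf knockout and 11.3 to 12.8 CPM in the double knockout. Among them Cd8a was 4.39, 5.91 and 6.8 CPM in the Prdm1 knockout and 0.0966, 0.264 and 0 CPM in controls. Their part in the receptor differences was not tested either.

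**Figure D3:**
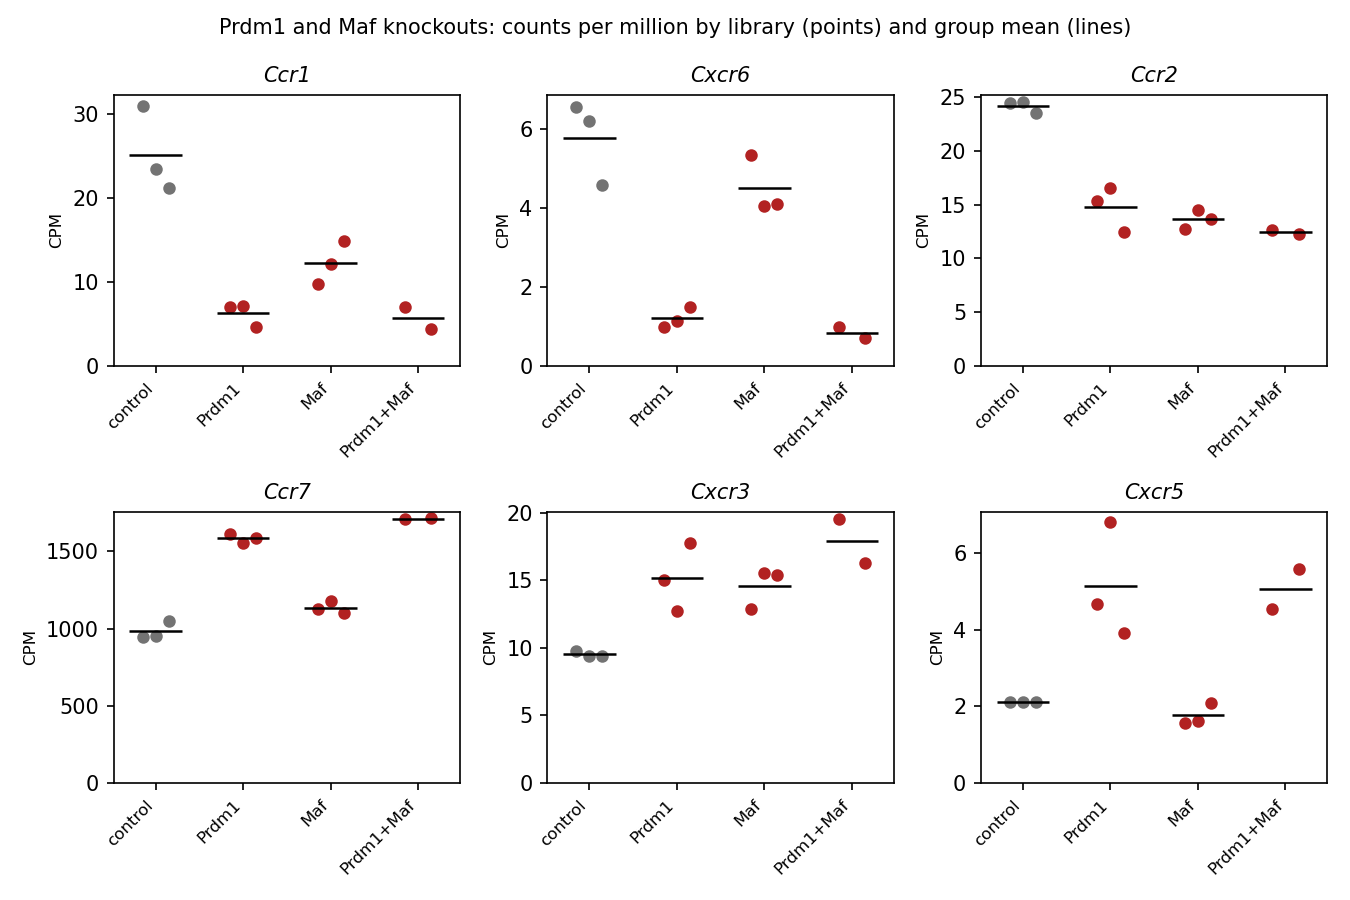
CPM of 6 receptor genes in the Prdm1 and Maf experiment, with 1 point per library, grey for controls and red for knockouts, and lines at group means; each axis starts at 0. Ccr1 and Cxcr6 are low in the Prdm1 and double knockouts, and Ccr7 is at 1557 to 1717 CPM there against 945 to 1047 CPM in controls.

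Ccr4, which binds CCL17 and CCL22, gave the largest rises of any receptor well covered by counts, in the Tbx21 and Irf4 knockouts. It was 9.27 and 24.9 CPM in the 2 Tbx21 controls and 136 and 228 CPM in the 2 knockout libraries. In the Irf4 experiment it was 7.47, 6.63 and 10.1 CPM in controls and 85.3 and 68.3 CPM in knockouts. In the Ets1 experiment it was 33.1 and 29.8 CPM in controls and 78.3 and 75.2 CPM in knockouts. No knockout library overlapped its controls in any of the 3 experiments. The log2 fold changes were 3.31 ± 0.42 (SE; adjusted p = 0.00568) for Tbx21, 3.17 ± 0.18 (SE; 1.56e-12) for Irf4 and 1.32 ± 0.12 (SE; 3.91e-05) for Ets1, by edgeR.

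In the Irf9 knockout, in BALB/c cells, Ccr4 was 20.7, 22.1, 28.6 and 30.7 CPM against 6.02, 5.68 and 11.5 CPM in controls (1.65 ± 0.27; adjusted p = 0.000156), again without overlap. The single Stat3 knockout library held 54.5 CPM of Ccr4 (76 counts) against 15.01 and 0 CPM in its 2 controls. That difference did not pass in the fit over the 12 linked libraries (2.45 ± 0.84; adjusted p = 0.181), which takes the lone library to vary like the other groups, and it passed when only the Stat3 library and its own 2 controls entered (adjusted p = 0.00415), where all the spread comes from those 2 controls, 1 of them at 0. In the Batf knockout Ccr4 was 5.16 and 12.3 CPM within a control range of 0 to 15.01 CPM.

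Ccr8, the receptor for CCL1 and like Ccr4 a marker of type 2 and some regulatory T cells, rose in 2 of the same experiments. It was 3.73, 4.73 and 5.30 CPM in the Irf4 controls and 34.6 and 39.1 CPM in the knockouts (2.96 ± 0.24; adjusted p = 5.86e-10). In the Ets1 experiment it was 8.44 and 4.19 CPM against 25.4 and 26.3 CPM (2.06 ± 0.25; adjusted p = 0.000275). Knockouts lay above controls in both. The 2 Tbx21 knockout libraries differed widely in Ccr8, at 14.6 and 59.9 CPM against 5.05 and 9.05 CPM in controls, and the change did not pass (2.30 ± 0.62; adjusted p = 0.062). Of 8 alternative fits 4 called this change. With all Tbx21 libraries in, it passed with replicate number as a block (edgeR adjusted p = 0.00108) and without a filter on low counts (0.0105). Pairing by replicate number is not settled in this experiment. The change was also called without knockout replicate 1 and without control replicate 2. Those fits leave 1 library in a group, so the other group alone supplies the spread, and they are no check of replication. The Stat3 knockout library held 33.0 CPM against 11.1 and 3.33 CPM (1.70 ± 0.80; adjusted p = 0.365), and in the Prdm1, Maf and double knockouts the log2 fold changes of Ccr8 were 0.11 ± 0.25, 0.31 ± 0.25 and 0.11 ± 0.27 (SE), none past the threshold.

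Gata3, the factor of type 2 helper cells, was on the list of T cell subset factors and rose in 5 of 16 comparisons. It rose with Ccr4 in the Ets1 (12.6 to 38.5 CPM, log2 1.64), Irf4 (11.5 to 80.3 CPM, 2.82) and Tbx21 (11.7 to 153 CPM, 3.61) knockouts, and also in the Stat3 and Batf knockouts, in which Ccr4 did not pass. The Tbx21 knockout libraries differed widely in Gata3, at 44.8 and 262 CPM, and the Stat3 rise rests on 1 knockout library. In the Irf9 knockout Gata3 did not pass while Foxp3, the regulatory T cell factor, rose from 42.7 to 145 CPM (1.75; adjusted p = 8.3e-12). Of the list, 6 of 15 tested rose and 2 fell without Ets1, 5 of 16 rose and 6 fell without Irf4, 3 of 16 rose and 4 fell without Tbx21, and 1 of 13 rose and 1 fell without Irf9. Of all genes, 20.4%, 28%, 6.72% and 4.93% passed in these comparisons.

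**Figure D4:**
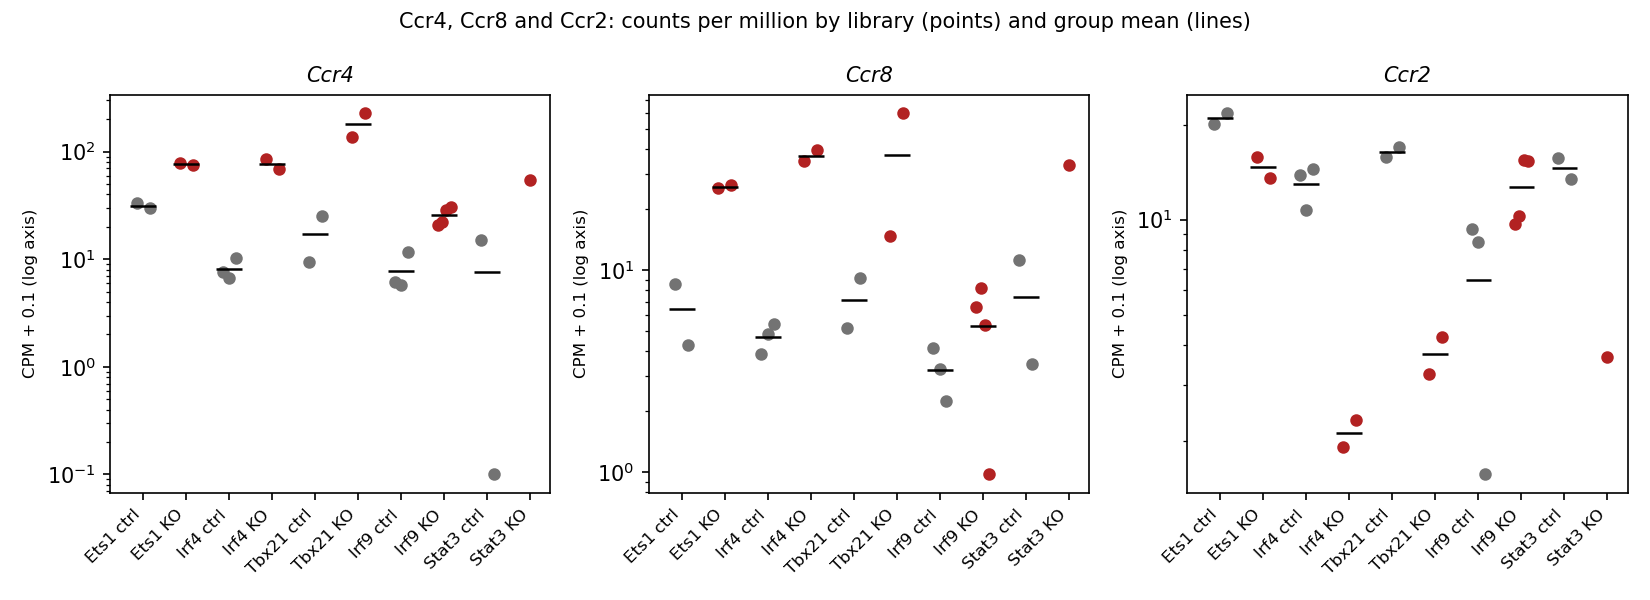
CPM plus 0.1 on log axes for Ccr4, Ccr8 and Ccr2 in the Ets1, Irf4, Tbx21, Irf9 and Stat3 experiments, with 1 point per library (grey controls, red knockouts) and lines at group means where a group has more than 1 library. Ccr4 lies above controls in every knockout shown, though the Stat3 difference did not pass. Ccr2 lies below in the Ets1, Irf4, Tbx21 and Stat3 knockouts, and of these differences only those of Irf4 and Tbx21 passed.

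Ccr2 fell in the Irf4 and Tbx21 knockouts. It was 13.7, 10.6 and 14.3 CPM in the Irf4 controls and 1.81 and 2.22 CPM in the knockouts (-2.71 ± 0.36; adjusted p = 3.06e-06). In the Tbx21 experiment it was 15.7 and 16.9 CPM against 3.14 and 4.15 CPM (-2.30 ± 0.30; adjusted p = 0.00639). No library of either knockout reached its controls. In the Ets1 knockout, at 15.7 and 13.4 CPM against 20.01 and 21.6 CPM, the difference did not pass (-0.48 ± 0.19; adjusted p = 0.1).

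In the Irf9 knockout Ccr2 lay above its controls without overlap, at 9.62, 10.2, 15.4 and 15.2 CPM against 9.23, 8.37 and 1.46 CPM, and did not pass (0.97 ± 0.38; unadjusted p = 0.0169, adjusted p = 0.165).

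In the Batf knockout Ccr2 was 8.38 and 2.60 CPM against 22.8, 15.6 and 13.4 CPM (-1.85 ± 0.48; adjusted p = 0.0428). Within batches the log2 difference was -1.39 in the first and -2.27 in the second, but the call was lost in 9 alternative fits, among them those without either Batf library (adjusted p of 0.131 and 0.512), without a batch term (0.101) and with only the Batf libraries and their controls (0.0912). In the libraries labelled Atf3 knockout Ccr2 was 8.74 and 6.82 CPM against 14.4 and 22.2 CPM (-1.28 ± 0.32; adjusted p = 0.0069), which was lost with DESeq2 (0.281), without knockout replicate 2 (0.0842) and without control replicate 2 (0.191).

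The Ccr2 level is uncertain because its expected counts were not whole numbers in 61 of the 63 libraries, by a tolerance of 0.005, against 16 or fewer for each of the other receptors. Expected counts that are not whole arise where reads are shared out among genes, so each Ccr2 difference given here may hold reads of other genes, and how many was not tested.

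Cxcr3, a target of T-bet in type 1 helper cells, was not altered in one direction across the knockouts. In the Tbx21 knockout it was 18.0 and 10.1 CPM against 9.68 and 15.6 CPM, with overlapping groups (0.03 ± 0.34; adjusted p = 0.966). In the same libraries Tbx21 itself fell from 77.1 ± 12.6 to 16.6 ± 1.58 CPM (SD, n = 2 each). In the Ets1 knockout Cxcr3 rose from 11.02 and 12.6 CPM to 21.8 and 21.6 CPM (0.90 ± 0.19; adjusted p = 0.00684). In the Irf9 experiment, whose controls held the most Cxcr3 of any, it was 65.2, 61.9 and 61.2 CPM in controls and 48.0, 49.6, 42.2 and 35.0 CPM in knockouts (-0.52 ± 0.13; adjusted p = 0.0156), without overlap. That call was lost with DESeq2 (0.129), with 3 single libraries left out in turn (0.0533 to 0.0761) and when near-identical libraries were summed (0.141). In the Irf4 knockout it was 5.59 and 9.96 CPM against 8.96, 14.2 and 17.1 CPM (-0.90 ± 0.30; adjusted p = 0.0235), with overlap, and the call was lost with DESeq2 (0.258), without Irf4 knockout replicate 1 (0.399) or control replicate 3 (0.324), and with replicate number as a block (0.343).

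Without Ets1 the 2 scarce inflammatory receptors rose, opposite to their direction without Prdm1. Cxcr6 went from 0.938 and 1.16 CPM (4 and 5 counts) in controls to 16.6 and 14.6 CPM (78 and 65 counts) in knockouts, a log2 fold change of 3.89 ± 0.34 (SE; adjusted p = 2.27e-05). Ccr1 went from 0.703 and 2.33 CPM to 11.5 and 8.31 CPM (2.71 ± 0.44; adjusted p = 0.00158). Neither gene's groups overlapped. In the Ets1 knockout 5 of 8 receptors tested rose and 1 fell, against 10% and 10.3% of all genes (20.4% together). Of 13 other homing receptors 6 rose and 0 fell. S1pr1, which takes T cells out of lymph nodes, rose from 74.7 to 169 CPM (log2 1.21), and the gut-homing integrin chain Itgb7 rose from 226 to 442 CPM (log2 1.00; adjusted p = 1.14e-05).

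Cxcr6 also rose in the Irf4 knockout, where it was 1.49, 0 and 0 CPM in controls (2 counts in all) and 4.57 and 3.56 CPM in knockouts (28 counts in all). The ratio of summed counts was 13.6, with an exact 95% interval of 3.42 to 118 that covers counting error only. The edgeR test gave an adjusted p of 0.00228 and lost the call with replicate number as a block (0.0812). Without Irf4, 3 of 7 receptors tested rose and 2 fell, against 14.8% and 13.2% of all genes (28% together). Without Tbx21, 1 of 6 rose and 2 fell, against 2.99% and 3.73% of all genes (6.72% together). The CD8 T and NK markers summed to 52.2 to 56.7 CPM without Irf4 against 15.2 to 18.2 CPM in controls and to 32.7 to 36.8 CPM without Ets1 against 11.1 to 16.9 CPM. In the Tbx21 knockout they summed to 24.9 to 26 CPM against 15.7 to 17.8 CPM in controls. Eomes, one of these markers and also a subset factor, rose from 2.38 to 40.9 CPM without Irf4. The part of these markers in the Irf4, Ets1 and Tbx21 results was not tested.

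In the Batf experiment Ccr1 was 0 in both knockout libraries and 6.07, 5.33 and 0 CPM in the controls (14, 11 and 0 counts), and the difference did not pass (adjusted p = 0.198). In the Fosl2 experiment, too few counts were present for a test: 13 counts (0.865 CPM) lay in the 1 knockout library used and 0 in both controls, at least 4.2-fold higher against a floor of 3 counts in each control library.

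Ccr6, the receptor for CCL20 and a marker of type 17 and B cells, was near 0 in most Tr1 libraries and passed the test in 2 experiments. It was 0 in both Atf3 controls and 9.58 and 6.62 CPM (19 and 15 counts) in the libraries labelled Atf3 knockout, at least 5.57-fold higher against a floor of 3 counts in each control library (adjusted p = 3.44e-05). In the Hif1a experiment it was 0.882 and 0.578 CPM (2 counts each) in controls and 7.18 and 17.1 CPM (16 and 35 counts) in knockouts (3.87 ± 0.63, adjusted p = 0.00199). In both experiments Ccr6 passed the count filter through the knockout libraries. Its being tested, its rise and its place in the counts below are therefore not separate facts. Cxcr5, the follicular receptor for CXCL13, rose in the same 2 experiments. It was 4.85 and 0.968 CPM in Atf3 controls against 16.1 and 19.4 CPM (2.59 ± 0.42; adjusted p = 2.88e-05), and 1.32 and 4.34 CPM in Hif1a controls against 15.3 and 21.0 CPM (2.39 ± 0.42; adjusted p = 0.00392). No groups overlapped in these 4 comparisons. Beside the lower Ccr2, 2 of 6 receptors tested rose and 1 fell in the libraries labelled Atf3 knockout (3.32% and 4.87% of all genes, 8.19% together). Without Hif1a 2 of 7 rose and 0 fell by edgeR (1.36% and 4.19% of all genes, 5.55% together), where 3 of 7 had an unadjusted p under 0.05 in either direction and DESeq2 called 2.

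B cells carry both CCR6 and CXCR5, and B cell RNA moved with these rises. The 10 B cell markers summed to 78.6 and 82.3 CPM in the libraries labelled Atf3 knockout against 10.7 and 15.5 CPM in controls, and to 112 and 185 CPM without Hif1a against 16.5 and 18.6 CPM. Of the markers with enough counts, 6 of 7 rose and 1 fell in the first experiment and 7 of 8 rose in the second. The CD8 T and NK markers moved the other way in the Atf3 experiment, from 91.4 and 133 CPM in controls to 15.2 and 17.3 CPM. Without Hif1a the CD8 T and NK markers were higher too, at 14.7 to 20.5 CPM against 7.71 to 10.8 CPM in controls. Among them Cd8a was 5.39 and 7.8 CPM without Hif1a against 0.441 and 0.867 CPM. In the Nfil3 knockout the B cell markers summed to 29 and 74 CPM against 8.76 to 15.1 CPM, and Cxcr5 was 12.8 and 8.22 CPM against 2.89, 6.23 and 3.54 CPM (1.27 ± 0.42; unadjusted p = 0.0112, adjusted p = 1, edgeR). The part of these markers in the Ccr6 and Cxcr5 differences was not tested.

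**Figure D5:**
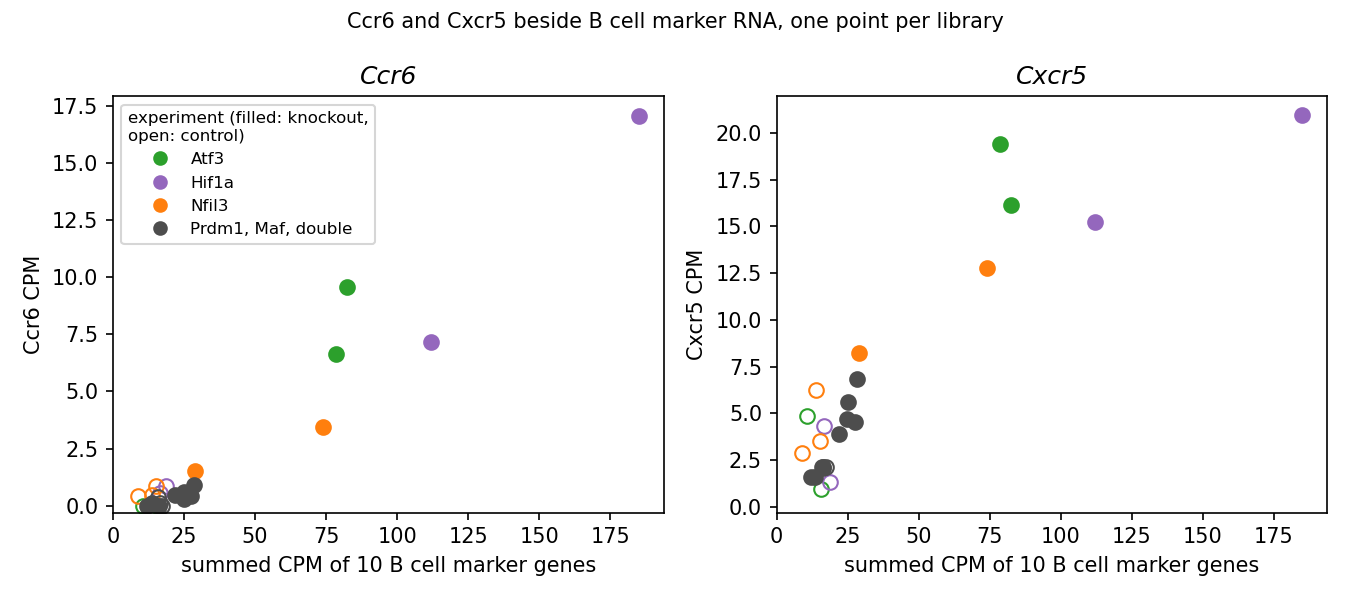
CPM of Ccr6 (left) and Cxcr5 (right) against the summed CPM of 10 B cell markers in each library of the Atf3, Hif1a, Nfil3 and Prdm1 and Maf experiments, with filled points for knockouts and open points for controls. The libraries with marker sums of 74 CPM or more are the ones with the most Ccr6 and Cxcr5.

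Cxcr5 also passed in the Batf and Tbx21 knockouts. In the Batf knockout it was 34.8 and 38.5 CPM against 13.9, 10.2 and 10 CPM (1.55 ± 0.34; adjusted p = 0.0154), with B cell markers at 9.56 and 14.3 CPM against 6.25 to 18.3 CPM. Other marker lists did stand apart there: 12 myeloid and dendritic markers summed to 36.3 and 42.1 CPM against 8 to 17.9 CPM, and the 7 CD8 T and NK markers to 44.1 to 62.4 CPM against 14.6 to 20 CPM. Their part in the Batf results was not tested. The Cxcr5 log2 difference was 1.3 within the first batch and 1.88 within the second. The call was lost without either Batf library (adjusted p of 0.177 and 0.304), without the control of the first batch (0.0536) and without control 1 of the second (0.0618). Of 8 receptors tested 1 rose and 1 fell without Batf, against 1.16% and 2.88% of all genes (4.04% together). Without Tbx21 Cxcr5 fell, from 14.1 and 22.2 CPM to 7.31 and 8.08 CPM (-1.35 ± 0.30; adjusted p = 0.0361), while B cell markers were at 31.7 and 46.5 CPM against 20.3 and 23.7 CPM, and this call was lost without control replicate 2 (0.156). Ccr6 was 14.4 and 1.80 CPM in the Tbx21 knockout libraries (65 and 8 counts) against 1.26 and 0.823 CPM in controls, and had too few counts to be tested.

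Ccr7, the receptor for CCL19 and CCL21, changed by less than 1 log2 unit in every comparison. Outside the Prdm1 and Maf experiment it passed in 2. In the Irf9 knockout it was 504, 548, 469 and 445 CPM against 600, 584 and 560 CPM in controls (-0.25 ± 0.06; adjusted p = 0.00641), without overlap, and in the Ets1 knockout 565 and 596 CPM against 737 and 670 CPM (-0.25 ± 0.07; adjusted p = 0.0291). The first was lost without control replicate 2 (0.0553), the second with DESeq2 (0.0872), with replicate number as a block (0.117) and without either knockout library (0.312 and 0.112). Without Tbx21 Ccr7 was 405 and 277 CPM against 529 and 487 CPM (-0.69 ± 0.19), with an adjusted p of 0.0626 by edgeR and 0.0147 by DESeq2. Without Irf4 it was 660 and 719 CPM and overlapped its controls, at 662 to 746 CPM (0.05 ± 0.08; adjusted p = 0.68).

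In the Irf9 experiment 1 of 4 receptors tested rose and 2 fell, against 2.45% and 2.48% of all genes (4.93% together). The B cell markers summed to 3.01 to 9.8 CPM in the 4 knockout libraries against 21.1 to 27.6 CPM in the 3 controls, and their part in these results was not tested. Some libraries of this experiment differed by little more than counting noise: the chi-square of their counts per degree of freedom was 1.07 for knockout replicates 3 and 4, 1.23 for 1 and 2, and 1.26 for controls 2 and 3, and in the Irf4 experiment it was 1.09 for controls 1 and 2, against 1.45 or more for every other pair. With these pairs summed, an alternative added after the data were seen, Ccr4 still passed in the Irf9 knockout, and Ccr7 (adjusted p = 0.143) and Cxcr3 did not.

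No receptor passed in the Irf1, Irf8, Stat3, Ahr, Fosl2 and Nfil3 comparisons by edgeR or by DESeq2. At an unadjusted p under 0.05 edgeR gave 0 of 8, 2 of 8, 2 of 8, 2 of 6, 0 of 7 and 3 of 5 receptors tested, in that order. The share of all genes that passed, higher and lower, was 0.0452% and 0.434% for Irf1, 0.0362% and 0.00904% for Irf8, 0.398% and 1.22% for Stat3, 0.14% and 0.241% for Ahr, 0.481% and 0.151% for Fosl2 and 0.0104% and 0.0104% for Nfil3. Both directions together came to 0.479%, 0.0452%, 1.62%, 0.381%, 0.632% and 0.0207%. Few genes of any kind passed there. The values still set some libraries apart. Irf8 knockout libraries held 20.4 and 24.2 CPM of Ccr4 against 14.3, 15.01 and 0 CPM (1.52 ± 0.71; adjusted p = 0.949) and 6.45 and 8.06 CPM of Cxcr3 against 26.4, 19.4 and 13.3 CPM (-1.08 ± 0.46; adjusted p = 0.949). Rn45s took 43.7% of the first of these libraries, and with it left out of the totals that library held 36.3 CPM of Ccr4 and 11.5 CPM of Cxcr3, and the second 25.1 and 8.35 CPM, against 14.8, 15.4 and 0 CPM of Ccr4 and 27.3, 19.9 and 14 CPM of Cxcr3 in controls. The Ahr knockout held 6.73 and 5.98 CPM of Cxcr3 against 10.1 and 12.3 CPM (-0.79 ± 0.36; adjusted p = 0.709). Nfil3 knockout replicate 2 held 50.9 CPM of Ccr2 against 8.11 CPM in replicate 1 and 10.1 to 13.5 CPM in controls, and the 2 knockout libraries did not replicate each other.

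Chemokine ligand genes also changed, with shares of all genes as given above for each knockout. Of 9 chemokine ligands tested in the Prdm1 knockout 4 fell and 1 rose: Ccl5 fell from 314 to 96.5 CPM (log2 -1.76), Ccl4 from 1972 to 840 CPM (-1.29) and Ccl3 from 1745 to 919 CPM (-0.99), and Xcl1 rose from 4.35 to 12.3 CPM (1.44). Without Maf 4 of 9 fell and 1 rose, with Ccl9 (-1.15) and Ccl4 (-0.91) the largest falls, and in the double knockout 5 fell and Xcl1 rose to 47.3 CPM (3.35; adjusted p = 2.13e-11). Without Tbx21 Ccl3 fell from 184 to 3.44 CPM (-5.83; adjusted p = 0.00491) and Ccl4 from 229 to 18.9 CPM (-3.71; adjusted p = 0.0117), whereas without Irf4 5 of 6 ligands tested rose and none fell, led by Ccl9 (2.29) and Ccl5 (1.92). Without Ets1, where Ccr1 rose, 3 of 5 ligands tested fell and 0 rose by edgeR, with Ccl9 from 17.1 to 6.29 CPM (-1.42), Ccl3 from 78.5 to 46.6 CPM (-0.72) and Ccl5 from 39.2 to 24.4 CPM (-0.66). None of Ccl17, Ccl19 and Ccl1, ligands of Ccr4, Ccr7 and Ccr8, had enough counts to be tested in any comparison. Ccl22, the other Ccr4 ligand named above, was tested in 4 of 16 comparisons and passed in 0.

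Of 29 genes for receptor signalling and desensitisation, 10 fell and 2 rose without Prdm1, 8 fell and 6 rose without Ets1, and 8 rose and 2 fell without Irf4, where 12.1%, 20.4% and 28% of all genes passed. Rgs16, which shortens Gi signals, moved in opposite directions in the last 2 experiments: it fell from 40.1 to 19.1 CPM without Ets1 (-1.04) and rose from 42.3 to 117 CPM without Irf4 (1.64). Arrb1, an arrestin that uncouples and internalises receptors, fell from 204 to 12.3 CPM without Hif1a (-4.19; adjusted p = 6.29e-07). Cxcr4 fell in the Batf (41.8 to 10.7 CPM), Hif1a (33.5 to 12.4 CPM) and Irf4 (65.8 to 39.6 CPM) knockouts, in none of which Ccr7 passed.

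Likeness of profile was measured as Pearson's correlation over the 35 knockout libraries of log2(CPM + 1) minus the mean of each library's own controls, among 8479 genes, and libraries of a group share their controls. Ccr4 and Ccr8 correlated at 0.645 with each other and Ccr2 with Ccr8 at -0.443, while Ccr2 with Ccr4 was at -0.167. Other pairs of receptors were of similar size: Ccr1 with Cxcr6 at 0.646, Ccr6 with Cxcr5 at 0.62 and Ccr7 with Cxcr3 at 0.605. Ccr7 with Cxcr6 was at -0.536, so the tie of Ccr4 and Ccr8 was not particular to them. The genes most like Ccr8 were Traf6 (0.814), Gata3 (0.759) and Tube1 (0.739), and those most like Ccr4 were Rnf19b (0.81), Tube1 (0.729) and Rbpj (0.716). Ccr2 was most like Tigit (0.786), and Acadl (0.734) was also among its 3 highest. Cxcr5 was most like H2-Eb1 (0.826), an MHC class II gene of antigen-presenting cells, then Slc29a1 (0.763) and Plcg2 (0.738). Cxcr3 was most like Usp5 (0.83), Ncf1 (0.821) and Trim28 (0.803), and Ccr7 most like B4galnt1 (0.794), Ankrd46 (0.782) and Rtn3 (0.78). Ccr1, Ccr6 and Cxcr6 averaged under 5 CPM and were not ranked.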

How the data were processed

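Per the submitters' processing notes, reads were handled with TopHat and RSEM on mm9; versions are not named there. The deposited tables give, for each gene and library, RSEM's expected counts, which share a read among the genes it fits, and TPM, which RSEM also scales by transcript length; both are as deposited. Of the expected counts above 0, 22.4% were not whole (tolerance 0.005), and they were rounded for testing. CPM was computed as the expected count over the library total.

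Knockouts were compared with the controls their titles name by edgeR 4.0.16 (R 4.3.3; TMM scaling, filterByExpr, quasi-likelihood F test), with p-values adjusted by Benjamini-Hochberg over all genes tested and a threshold of 0.05. The Prdm1 and Maf libraries were fitted together, and the 12 libraries of Batf, Irf1, Irf8 and Stat3 together with batch as a term. Batches were read from the control titles, and the third batch was assigned by exclusion. DESeq2 1.42.0 and other settings were run as alternatives. The edgeR script was tested on simulated data. Double knockout replicate 3 (9059 counts), Fosl2 knockout replicate 1 (84.8% Rn45s) and the 4 Cebpb libraries (30602 to 46237 counts) were left out.

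The 9 receptors were given in advance. Genes of other lists were named where they passed, up to 3 per direction by size of change, with at least 10 CPM in the higher group. The members and lists were chosen with earlier results of these data known. Replicate numbers were not used as pairs: with 3 or more pairs the correlations of same-numbered libraries did not all exceed 0.1. In the Hif1a and Tbx21 experiments, which have fewer pairs, they were 0.297 and 0.18, above that limit. The replicate block was fitted there only as an alternative, so pairing in these experiments is not settled. Intervals and floors cover counting error only. Promoter sequences are RefSeq's, on GRCm38.p6. Figures were drawn with matplotlib 3.10.9. One further gene is not reported here.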

Additional observations from a re-analysis of the deposited data

Results flagged for a closer look

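Ccr6 stood out in the Irf9 knockout group, where 1 of 4 libraries held 1 count (0.67 CPM) and the others 0. This was the one group of at least 4 libraries, and of the 9 receptors looked at in it 1 stood out. With the other libraries at 0, a single count is enough to stand out, so nothing is concluded from it.

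The left-out Cebpb libraries, which are shallow, held receptor reads that their controls did not. Cebpb knockout replicate 1 had 2 counts of Cxcr5, or 43.3 CPM (exact Poisson 95% interval 5.24 to 156), and Cebpb knockout replicate 2 had 5 counts of Ccr1, or 129 CPM (41.9 to 301). Both genes were at 0 in the Cebpb controls.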

How the results depend on the processing

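Of 45 called receptor changes, the Prdm1 against Maf contrast included, 24 were called in every alternative and 21 were lost in at least 1, 8 uncalled changes were gained, and 0 called changes reversed. The number of receptors called changed as follows. With double knockout replicate 3 kept it was 2 for Prdm1 (from 7), 1 for Maf (from 4) and 3 for the double knockout (from 6). Without a filter on low counts it was 1 for the interaction (from 0), 1 for Stat3 (from 0) and 6 for Tbx21 (from 3). For Batf it was 1 (from 2) without a batch term and 1 with its own libraries only, and for Stat3 1 with its own libraries only. With near-identical pairs summed it was 1 for Irf9 (from 3). With replicate number as a block it was 3 for Irf4 (from 5) and 5 for Tbx21 (from 3); in the other experiments the block moved no receptor count by over 1.5 times. Leaving out 1 library at a time gave 0 to 2 for Batf, 3 to 5 for Irf4, 1 to 3 for Irf9, 0 to 1 for Nfil3 and 3 to 5 for Tbx21. The cause of these shifts was not tested, beyond the libraries and genes each setting adds or removes.

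Counts over all genes moved by more than 1.5 times as follows. With double knockout replicate 3 kept they fell to 83 for Prdm1 (from 1367), 64 for Maf (from 1021), 166 for the double knockout (from 2150), 23 for the interaction (from 124) and 104 for Prdm1 against Maf (from 928). Without a filter they were 349 for the interaction, 164 for Irf1 (from 53), 41 for Irf8 (from 5), 470 for Stat3 (from 179), 892 for Hif1a (from 549), 14 for Nfil3 (from 2) and 1178 for Tbx21 (from 738). DESeq2 gave 100 for Irf1, 12 for Irf8, 303 for Stat3, 13 for Ahr (from 38), 192 for Atf3 (from 787), 1242 for Ets1 (from 2199), 6 for Fosl2 (from 71), 1617 for Irf4 (from 2934) and 196 for Irf9 (from 439). Irf1 gave 13 with its own libraries only, Fosl2 gave 0 with knockout replicate 1 kept (edgeR), Irf9 gave 112 with pairs summed, and the replicate block gave 1417 for Hif1a and 1783 for Tbx21. Leaving out 1 library gave 763 to 1464 for Prdm1, 510 to 1346 for Maf, 1085 to 2570 for the double knockout, 41 to 405 for the interaction, 598 to 1079 for Prdm1 against Maf, 118 to 634 for Batf (from 447), 2 to 65 for Irf1, 0 to 11 for Irf8, 109 to 389 for Stat3, 10 to 54 for Ahr, 376 to 662 for Atf3, 1707 to 2857 for Irf4, 225 to 419 for Irf9, 0 to 28 for Nfil3, 301 to 1429 for Hif1a and 210 to 1710 for Tbx21. Depth limits Ccr1, Ccr6 and Cxcr6 most.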
